A study of Mus musculus with 4 samples.

Results

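Purkinje cells are the output neurons of the cerebellar cortex, and the genes described here are a set of 8 known for their expression in them: Pcp2, Ppp1r17, Car8, Homer3, Itpr1, Pcp4, Rora and Aldoc. The genes were chosen with earlier results of these data known, and all their probes were taken by gene symbol from the platform annotation. Of the 8 genes, 6 matched a probe, 9 probes in all out of 45281 on the array. Itpr1 and Homer3 matched none and are not analysed here. The measurements were made on 4 Illumina bead arrays of mouse brain total RNA, 2 from Atm-/- brain and 2 from Atm+/+ brain, all of a mixed 129J x C57BL/6 background. Atm encodes a kinase activated by DNA double-strand breaks. The labels used here name neither the Atm allele nor the age or sex of the mice, and they do not say which part of the brain was taken or whether the replicates of a genotype came from separate animals. P-values therefore rest on the spread within these pairs of samples, and that spread may be technical.

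Purkinje cells receive excitation from granule cell axons and from climbing fibres, and their slow calcium signals run from the glutamate receptor mGluR1 through a phospholipase to inositol trisphosphate (IP3) and its receptor. They are the cells best known to be affected in ataxia-telangiectasia, the human disease caused by loss of ATM. Several of the 8 genes act in or beside this route. Itpr1 encodes the IP3 receptor of these cells, Homer3 a scaffold that ties mGluR1 to it, and Car8 an inactive carbonic anhydrase relative that binds it. Pcp2 encodes a GoLoco-domain protein that binds inhibitory G protein subunits, and Ppp1r17 encodes G-substrate, a phosphatase inhibitor controlled by cGMP-dependent kinase. Pcp4 encodes a small calmodulin-binding protein, Rora a nuclear receptor needed for Purkinje cell maturation, and Aldoc the glycolytic enzyme aldolase C, also called zebrin II, which marks stripes of Purkinje cells. Within the brain, Pcp2, Ppp1r17, Car8 and Homer3 are known mainly from Purkinje cells. The other 4 are also abundant elsewhere: Itpr1 in hippocampus and cortex, Pcp4 in striatum and cortex, Rora in thalamus and cortical layer 4, and Aldoc in astrocytes.

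RefSeq promoter windows on GRCm38.p6 were found for 5 of the 8 genes, and 3 are shown because they end at the first base of a member that was measured: Pcp2 at chr8:3625548-3625797 on the minus strand, Aldoc at chr11:78322823-78323072 on the plus strand and Pcp4 at chr16:96467356-96467605 on the plus strand. Each holds the 250 bases before the start, and capitals mark AGGTCA or its reverse complement TGACCT, the core letters that ROR and other nuclear receptors bind.
Pcp2: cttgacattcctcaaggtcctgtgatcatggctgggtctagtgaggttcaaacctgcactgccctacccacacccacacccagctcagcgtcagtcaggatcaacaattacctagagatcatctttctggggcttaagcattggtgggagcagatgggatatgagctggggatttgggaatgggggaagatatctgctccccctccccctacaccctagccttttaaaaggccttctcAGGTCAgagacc
Aldoc: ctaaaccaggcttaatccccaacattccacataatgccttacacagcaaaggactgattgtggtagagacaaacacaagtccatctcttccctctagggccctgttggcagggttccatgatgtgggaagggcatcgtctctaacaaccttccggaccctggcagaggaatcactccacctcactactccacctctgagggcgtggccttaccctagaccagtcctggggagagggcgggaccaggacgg
Pcp4: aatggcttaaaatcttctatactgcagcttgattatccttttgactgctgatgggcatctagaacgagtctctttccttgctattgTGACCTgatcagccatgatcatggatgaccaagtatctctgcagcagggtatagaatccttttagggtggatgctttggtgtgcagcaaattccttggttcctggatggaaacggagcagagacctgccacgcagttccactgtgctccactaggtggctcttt
The Pcp2 window carries AGGTCA beginning 12 bases before the start, the Pcp4 window carries TGACCT beginning 164 bases before it, and these letters are not in the Aldoc window on either strand. Over all 32851 windows of this length, 14.0% hold AGGTCA on either strand. The longer form TAGGTCA, found in 2.23% of windows, is in none of the 3 shown. A match describes the letters and does not show a binding site.

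Pcp2 and Ppp1r17, known mainly from Purkinje cells, were lower in Atm-/- brain. Their Atm-/- signal was at background, so they came to be tested through Atm+/+ alone, and only a bound on their change is given. Rora and Aldoc, which other cells share, were lower by 1.31 to 1.53 on the log2 scale at their brighter probes. Pcp4 did not pass the test, and both Car8 probes were at background on all 4 arrays. Background was a log2 signal of 5.64, and a probe was tested if it exceeded this on at least 2 arrays. Of the 9 probes, 6 were tested, 4 of these fell and 0 rose (limma, adjusted p under 0.05). Across all 22383 tested probes 6.06% fell and 6.98% rose. On 4 of the 6 both Atm-/- values were below both Atm+/+ values, as they were on 30.3% of all tested probes. Pcp2 and Ppp1r17 entered the test through their Atm+/+ values alone, so a difference was built into their passing the filter. In bulk RNA, fewer cells of a type and less RNA per cell cannot be told apart.

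Atm itself served as the check of the labels. Its probe ILMN_1258206 read 5.59 and 5.27 in Atm-/-, against 7.75 and 7.84 in Atm+/+ (adjusted p = 0.00224), and it passed whichever array was left out. ILMN_2783896 also fell (adjusted p = 0.0205), a call that did not hold without Atm-/- replicate 1 (0.219) or Atm-/- replicate 2 (0.200). ILMN_2492491 at 0.61 did not pass (adjusted p = 0.308), and the last Atm probe was not tested. The labels do not place these probes relative to the disruption in Atm. ILMN_1258206 and ILMN_2783896 were at background in Atm-/- and entered the test through Atm+/+ alone, so a difference was built in. The Atm+/+ arrays were less alike than the Atm-/- arrays: 0.737% of tested probes differed over 2-fold between the Atm-/- replicates, and 11.3% between the Atm+/+ replicates. A fit without an Atm-/- array takes its within-genotype spread from the Atm+/+ pair alone. A fit without an Atm+/+ array takes it from the Atm-/- pair alone. Calls gained or lost in such fits, here and below, therefore do not show dependence on the array left out. Precision is limited by having 4 arrays, on each of which 21290 to 21335 probes were above background.

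Pcp2 was at background in Atm-/- brain and bright in Atm+/+ brain. Its probe ILMN_2641456 read 5.001 and 5.020 log2 units on the Atm-/- arrays, against 12.93 and 12.85 on the Atm+/+ arrays. The Atm-/- values were both under the background level, the groups did not overlap, and the replicates of each genotype lay within 0.08 of each other. The log2 signal fell by 7.88 ± 0.25 (SE, n = 2 per genotype, limma adjusted p = 5.77e-05), which makes Pcp2 at least 152-fold lower, since a probe at background sets only a bound.

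Ppp1r17 was also at background in Atm-/- brain, and its Atm+/+ values were less even. Probe ILMN_1253073 read 5.25 and 5.35 on the Atm-/- arrays, against 8.59 and 7.38 on the Atm+/+ arrays. The groups did not overlap, although the Atm+/+ arrays differed from each other by 1.21. The log2 signal fell by 2.68 ± 0.40 (adjusted p = 0.00735), at least 5.07-fold. The change was -3.29 without Atm+/+ replicate 2 and -2.08 without Atm+/+ replicate 1, and it passed the threshold whichever array was left out.

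Car8 gave no usable signal. Probe ILMN_2682015 read 5.23 and 5.42 on the Atm-/- arrays, against 4.91 and 5.48 on the Atm+/+ arrays. Probe ILMN_2513960 read 5.03 and 4.92 in Atm-/- and 5.02 and 5.06 in Atm+/+. All 8 values were under background, including those from the Atm+/+ arrays on which Pcp2 was bright, so these probes measure no change of Car8 in either direction.

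**Figure D1:**
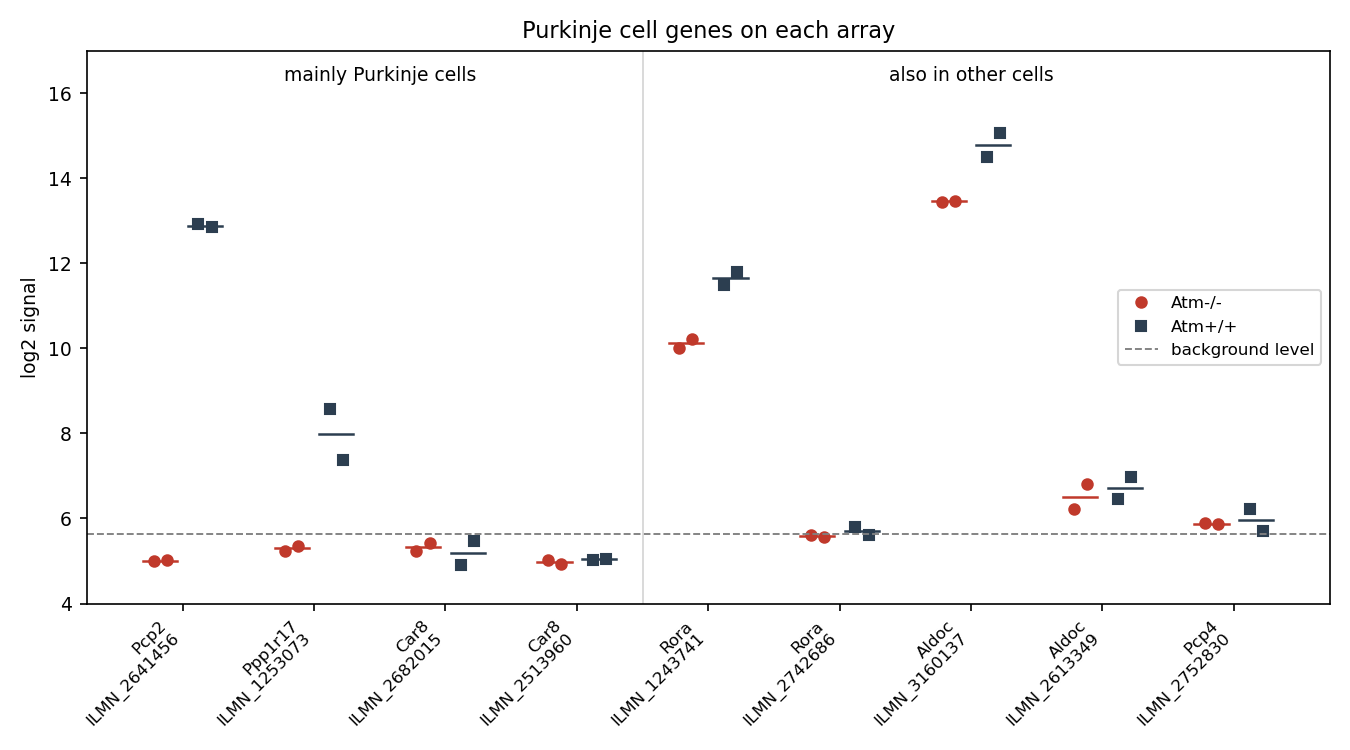
Log2 signal (vertical axis) of the 9 probes on each array, with Atm-/- as circles left of Atm+/+ as squares, bars at the mean of 2 arrays and the background level of 5.64 as a dashed line. Pcp2 and Ppp1r17 are above the line in Atm+/+ alone, which is how they came to be tested. The brighter Rora and Aldoc probes are lower in Atm-/- and far above the line in both genotypes.

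Rora, the nuclear receptor gene, was lower in Atm-/- brain without approaching background. Probe ILMN_1243741 read 10.01 and 10.23 on the Atm-/- arrays, against 11.50 and 11.81 on the Atm+/+ arrays. The groups were 1.27 apart at their nearest values, more than the 0.31 between the Atm+/+ arrays. The log2 signal fell by 1.53 ± 0.27 (adjusted p = 0.0122), or 2.90-fold. With Atm-/- replicate 1 left out the change was -1.42 and no longer passed. With Atm-/- replicate 2 left out it was -1.64 and did not pass. Both fits take their spread from the Atm+/+ pair alone. The other Rora probe, ILMN_2742686, read 5.60 and 5.58 in Atm-/-, against 5.79 and 5.62 in Atm+/+, above background on 1 array alone, and was not tested.

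Aldoc was bright in both genotypes and lower in Atm-/- brain at 1 of its probes. Probe ILMN_3160137 read 13.45 and 13.47 on the Atm-/- arrays, against 14.49 and 15.06 on the Atm+/+ arrays, with no overlap. The log2 signal fell by 1.31 ± 0.29 (adjusted p = 0.0275), or 2.48-fold. Leaving out Atm-/- replicate 1 or Atm-/- replicate 2 ended the call, while the change remained -1.30 and -1.33. Those fits take their spread from the Atm+/+ pair alone. The dimmer probe ILMN_2613349, annotated to the same transcript, read 6.22 and 6.81 in Atm-/-, against 6.46 and 6.97 in Atm+/+. These values interleave, and the change of -0.20 ± 0.32 did not pass (adjusted p = 0.717). Its 95% interval of -0.96 to 0.55 does not hold the change of the brighter probe.

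Pcp4 was barely above background on every array. Probe ILMN_2752830 read 5.89 and 5.87 in Atm-/- brain, both between the Atm+/+ values of 6.21 and 5.70. The change of -0.08 ± 0.28 did not pass the threshold (adjusted p = 0.882), and its 95% interval ran from -0.74 to 0.58. A signal this close to background leaves little room for a fall to be seen.

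**Figure D2:**
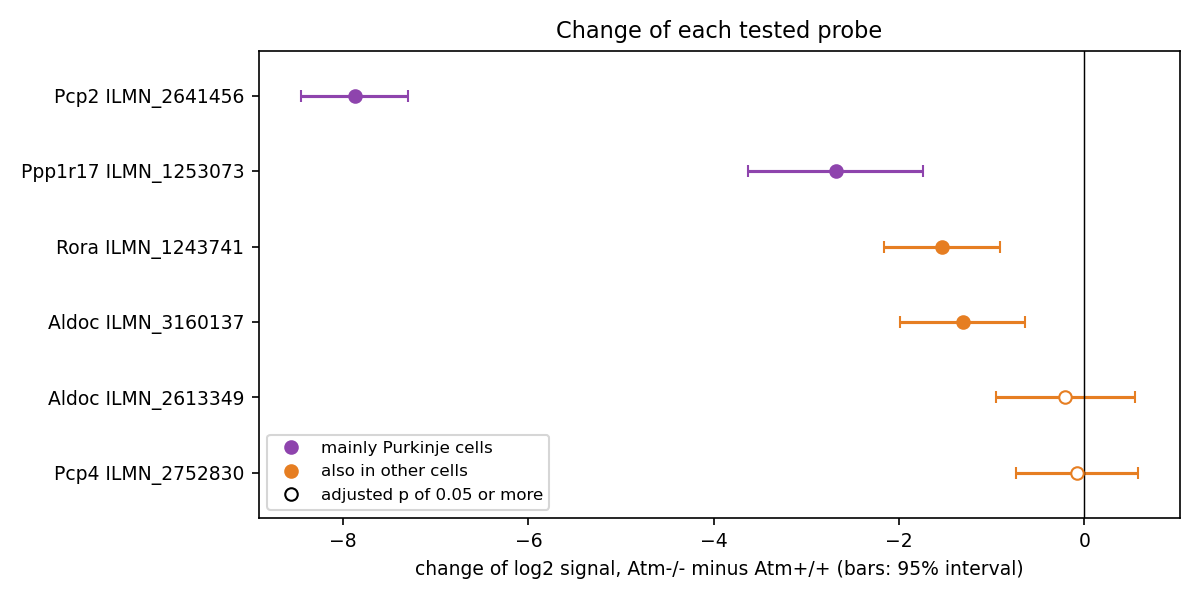
Change of log2 signal, Atm-/- minus Atm+/+ (horizontal axis), for the 6 tested probes, with 95% intervals from limma. Pcp2, with an interval of -8.46 to -7.30, and Ppp1r17 were at background in Atm-/-, so their changes are only bounds. The open symbols of Pcp4 and the dimmer Aldoc probe sit near 0.

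The genes known mainly from Purkinje cells and those shared with other cells can be set side by side only as a description. Of the first class, Pcp2 and Ppp1r17 could be tested. Both were at background in Atm-/- and passed the filter through Atm+/+ alone. A difference was thus built in, and the classes are not compared on it. Of the second class, 3 genes had 4 tested probes, of which 2 fell, with changes between -1.53 and -0.08. Across all tested probes 6.06% fell. The 95% interval of Ppp1r17, -3.63 to -1.74, overlapped that of Rora, -2.16 to -0.91. Since Ppp1r17 was at background in Atm-/-, its change is only a bound. The overlap therefore cannot show whether the size of change separates the classes. With 2 arrays per genotype an exact two-sided permutation test of a difference between classes cannot go below a p of 0.333, and none was run. Signals of different probes are not on 1 scale, so the levels of the genes were not ranked.

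Other genes known from Purkinje cells, listed with earlier results of these data known, fell more often than they rose. From a list of 28 such genes, 20 had a probe and 18 were tested, of which 11 fell, 1 rose and 6 did not pass, with a median change of -2.21 (-1.97 with dim genes at their bound). Among all 12229 tested genes, each by its brightest probe, 6.89% fell and 7.5% rose, with a median of -0.01. Lhx1, a LIM homeobox gene of Purkinje cell development, read 4.89 and 4.80 in Atm-/-, against 10.63 and 11.27 in Atm+/+, at least 39.6-fold lower (adjusted p = 0.000181). Like Pcp2 it was at background in Atm-/- brain and entered the test through Atm+/+ alone, so a difference was built in. Of the 11 falls, 2 were of this kind, that of Lhx1 included. Kcng4, a modulatory potassium channel subunit, read 6.43 and 6.75 in Atm-/-, against 11.18 and 11.65 in Atm+/+, and fell by 4.83 ± 0.29 (adjusted p = 0.000321). Pvalb, the calcium buffer parvalbumin that interneurons of the forebrain also make, fell by 3.36 ± 0.25, to a mean of 12.13 in Atm-/-, against 15.49 in Atm+/+, and so stayed far above background. Itpka, an IP3 kinase also abundant in hippocampus and cortex, was the member that rose. Between 9 and 14 genes fell when 1 array was left out. The 2 members with a probe too dim to test, named after their values were seen, were Calb1 and Slc1a6. Calb1, the calcium buffer calbindin, read 5.11 and 4.95 in Atm-/-, against 5.28 and 5.24 in Atm+/+, so, as with Car8, its probe carried no signal even where Pcp2 was bright. Slc1a6, the Purkinje cell glutamate transporter EAAT4, exceeded background on 1 Atm+/+ array, at 6.03.

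Genes of the route from mGluR1 to the IP3 receptor included both falls and rises, as the array did as a whole. Of 26 listed genes beside the members, 22 had a probe and 20 were tested, of which 3 fell, 3 rose and 14 did not pass, with a median of -0.13. Over all tested genes 6.89% fell and 7.5% rose. Inpp5a, a phosphatase that inactivates IP3, read 10.56 and 10.41 in Atm-/-, against 12.67 and 12.77 in Atm+/+, a fall of 2.24 ± 0.25 on the log2 scale (adjusted p = 0.00237). Rgs8, a G protein regulator enriched in Purkinje cells, read 10.73 and 10.74 in Atm-/-, against 12.73 and 13.33 in Atm+/+, and fell by 2.29 ± 0.29 (adjusted p = 0.00408). The third to fall, named after its values were seen, was Atp2a3, an endoplasmic reticulum calcium pump of Purkinje cells, at -2.37 ± 0.46 (adjusted p = 0.0175), a call that did not hold without Atm-/- replicate 1 (0.0605) or Atm-/- replicate 2 (0.0583). Inpp5a, Rgs8 and Atp2a3 are all also on the list of Purkinje cell genes. Itpka, which phosphorylates IP3, read 12.33 and 12.37 in Atm-/-, against 10.14 and 10.10 in Atm+/+, and rose by 2.23 ± 0.25 (adjusted p = 0.00225). The other rises were in Homer2 and Homer1, described next. Leaving out an Atm-/- array gave 2 falls and 2 or 3 rises. Leaving out Atm+/+ replicate 1 gave 5 of each, and leaving out Atm+/+ replicate 2 gave 6 of each.

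**Figure D3:**
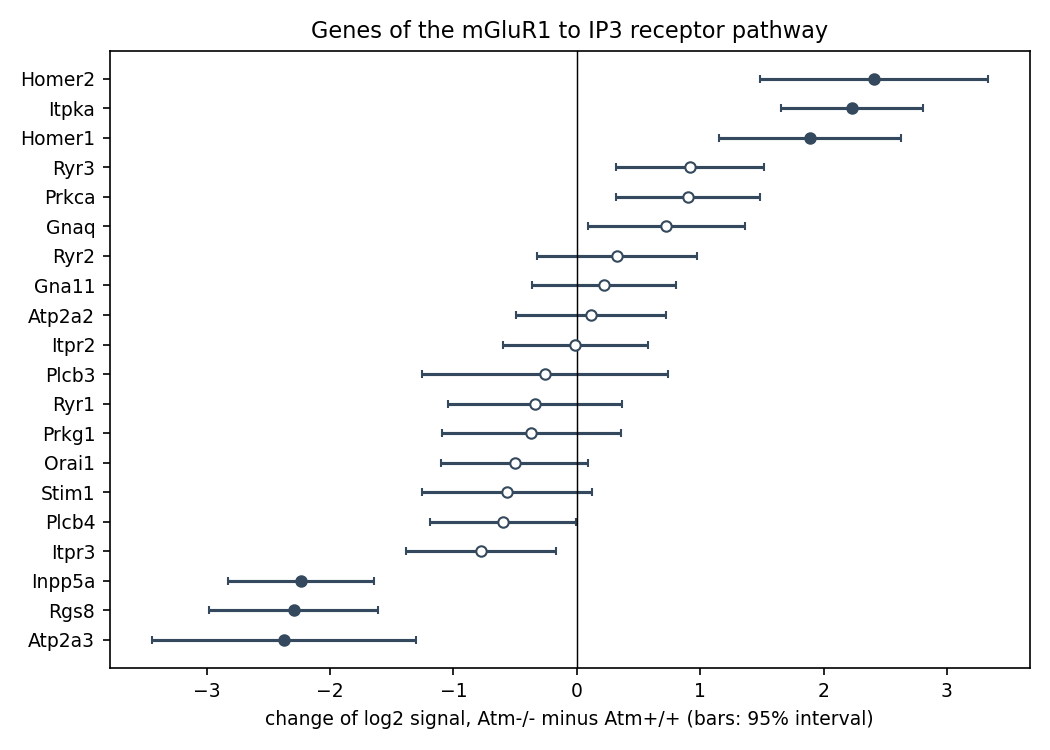
Change of log2 signal, Atm-/- minus Atm+/+ (horizontal axis), with 95% intervals, for the 20 tested genes of the mGluR1 to IP3 receptor route, filled where the adjusted p was under 0.05. Atp2a3, Rgs8 and Inpp5a lie on the lower side, and Homer2, Itpka and Homer1 on the higher side.

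Of 12 tested relatives of the members from the same protein families, each by its brightest probe, 4 rose, 0 fell and 8 did not pass, where 7.5% of all tested genes rose and 6.89% fell. Homer2, a scaffold relative of Homer3, read 11.45 and 11.49 in Atm-/-, against 9.64 and 8.48 in Atm+/+, and rose by 2.41 ± 0.39 (adjusted p = 0.0101). Homer1 rose by 1.89 ± 0.31 (adjusted p = 0.0107) at its brightest probe ILMN_2718149 and by 1.75 at ILMN_1226785, a call that did not hold there without Atm-/- replicate 1 (0.0803) or Atm-/- replicate 2 (0.0923), while ILMN_2595990 gave 0.03 and did not pass. The Homer1 call at the brightest probe was lost without Atm-/- replicate 2 (adjusted p = 0.131). Of the IP3 receptor relatives, Itpr2 at -0.01 ± 0.25 and Itpr3 at -0.77 ± 0.26 (adjusted p = 0.0947) did not pass. Aldoa, the aldolase of most tissues, gave 0.47 ± 0.26 and did not pass (adjusted p = 0.267), with a 95% interval of -0.13 to 1.07 that lies above the whole interval of the brighter Aldoc probe, -1.99 to -0.64. Rorb, a cortical relative of Rora, gave 1.41 ± 0.38 at its brightest probe, just short of the threshold (adjusted p = 0.0514), and its other probes gave 0.58 and 0.09. Among GoLoco relatives of Pcp2, Rgs14, known from hippocampal area CA2, was at background in Atm+/+ and at least 6.81-fold higher in Atm-/- (adjusted p = 0.000543). It entered the test through Atm-/- alone, so a difference was built in. Gpsm1 at -0.33 and Gpsm2 at 0.82 did not pass. Car11, an inactive relative of Car8, rose by 1.84 ± 0.29 (adjusted p = 0.00934), a call lost without either Atm-/- array (adjusted p of 0.0820 and 0.0805). Car10 gave -0.01 at its brighter probe and was not past the threshold there, while its dimmer probe fell by 1.11 to background (adjusted p = 0.0319), which did not pass without Atm-/- replicate 1 (0.291) or Atm-/- replicate 2 (0.352). Pcp4l1, a relative of Pcp4, did not pass at either probe, at -0.46 and 0.11.

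Markers of other cells and regions moved on these same arrays, and their part in the changes of the members was not tested. Over all tested genes 6.89% fell and 7.5% rose, the shares to set beside each list below. These lists were also chosen with earlier results of these data known. Some genes known from other cells of the cerebellum fell as well. Of 15 granule cell genes 11 were tested, of which 7 fell, 0 rose and 4 did not pass, with a median of -2.12. Gabra6, a GABA receptor subunit that defines granule cells, read 4.82 and 5.05 in Atm-/-, against 8.72 and 8.73 in Atm+/+, at least 8.47-fold lower. Of the 7 falls, 2 were to background in Atm-/-, that of Gabra6 included, and these entered the test through Atm+/+ alone. Etv1, named after its values were seen, gave -1.003 at its brightest probe (adjusted p = 0.0429). Its other tested probes gave 0.48 and 0.83 and did not pass. Zic1 fell by 3.96 ± 0.25, and Cbln1, the synapse organiser that granule cells release onto Purkinje cells, fell by 3.88 ± 0.33. The summed linear signal of the 11 genes was 18400 to 19188 in Atm-/- and 53251 to 68646 in Atm+/+. That of the 18 other Purkinje cell genes was 26344 to 26536 in Atm-/- and 107533 to 112131 in Atm+/+. Such sums, here and below, weigh the brightest probes most, although signals of different probes are not on 1 scale. Cbln1, at a mean of 14.62 in Atm+/+, and Pvalb, at 15.49, weighed most in these sums. The sums do not measure amounts of a cell type.

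For Rora, the thalamic list is the nearest comparison. Of its 13 genes 11 were tested, of which 7 fell, 1 rose and 3 did not pass, with a median of -1.48. One of the falls, Calb2 at -2.40 ± 0.30, is also counted among the granule cell genes. The Rora change was -1.53, and whether it came from thalamus was not tested. Gbx2, a homeobox gene of the thalamus, fell by 3.17 ± 0.28, and Slc17a6, the glutamate transporter VGLUT2 of thalamus and brainstem, fell by 2.13 ± 0.25, while Tnnt1 rose by 2.29 ± 0.25. Their summed signal was 7320 to 7618 in Atm-/- and 27652 to 28879 in Atm+/+. Without Atm-/- replicate 1 or Atm-/- replicate 2, 3 and 4 of these genes fell.

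For Aldoc, astrocytes and the Bergmann glia that surround Purkinje cells are the comparison. Of 14 tested astrocyte genes 4 fell, 0 rose and 10 did not pass, with a median of -0.65. Changes of those 10 ran from -1.31 to 0.52, on both sides of no change. S100b fell by 2.34 ± 0.28, Aqp4, the water channel of astrocyte endfeet, by 1.93 ± 0.25, Gfap by 2.20 ± 0.40 and Slc4a4 by 1.38 ± 0.27. Of these, Aqp4 missed the threshold without Atm-/- replicate 1 (adjusted p = 0.0661), as did Gfap (0.0646) and Slc4a4 (0.121), and Gfap (0.0599) and Slc4a4 (0.271) missed it without Atm-/- replicate 2. Without Atm-/- replicate 1 or Atm-/- replicate 2, 1 and 2 of the astrocyte genes fell, and without either Atm+/+ array 7 fell. Of 6 tested Bergmann glia genes 3 fell, 0 rose and 3 did not pass, with a median of -1.11. Changes of the 3 that did not pass ran from -0.54 to 0.93. Gdf10, a growth factor gene that marks these cells, fell by 2.83 ± 0.25. Leaving out an Atm-/- array gave 2 falls (replicate 1) or 1 fall (replicate 2) and 0 rises. Leaving out an Atm+/+ array gave 3 falls and 1 rise (replicate 1) or 4 falls and 2 rises (replicate 2). Summed astrocyte signal was 63829 to 64002 in Atm-/- and 98537 to 102497 in Atm+/+.

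Forebrain markers went the other way. Of 11 tested genes of cortex and hippocampus 10 rose and 0 fell, with a median of 4.28. Of 11 tested striatal genes 9 rose and 0 fell, with a median of 2.69. Among these rises, 4 cortical and 2 striatal ones were at background in Atm+/+. They entered the test through Atm-/- alone, so a difference was built in. Ddn, a postsynaptic protein of forebrain neurons, rose by 7.88, and the striatal gene Arpp21 rose by 4.63. The striatal count was 6 without either Atm-/- array. The summed cortical signal was 59273 to 65499 in Atm-/- and 4376 to 8461 in Atm+/+, and the striatal one 73547 to 77493 in Atm-/- and 6955 to 11081 in Atm+/+. A change of the members with genotype and a difference in the brain regions sampled cannot be told apart on these arrays.

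**Figure D4:**
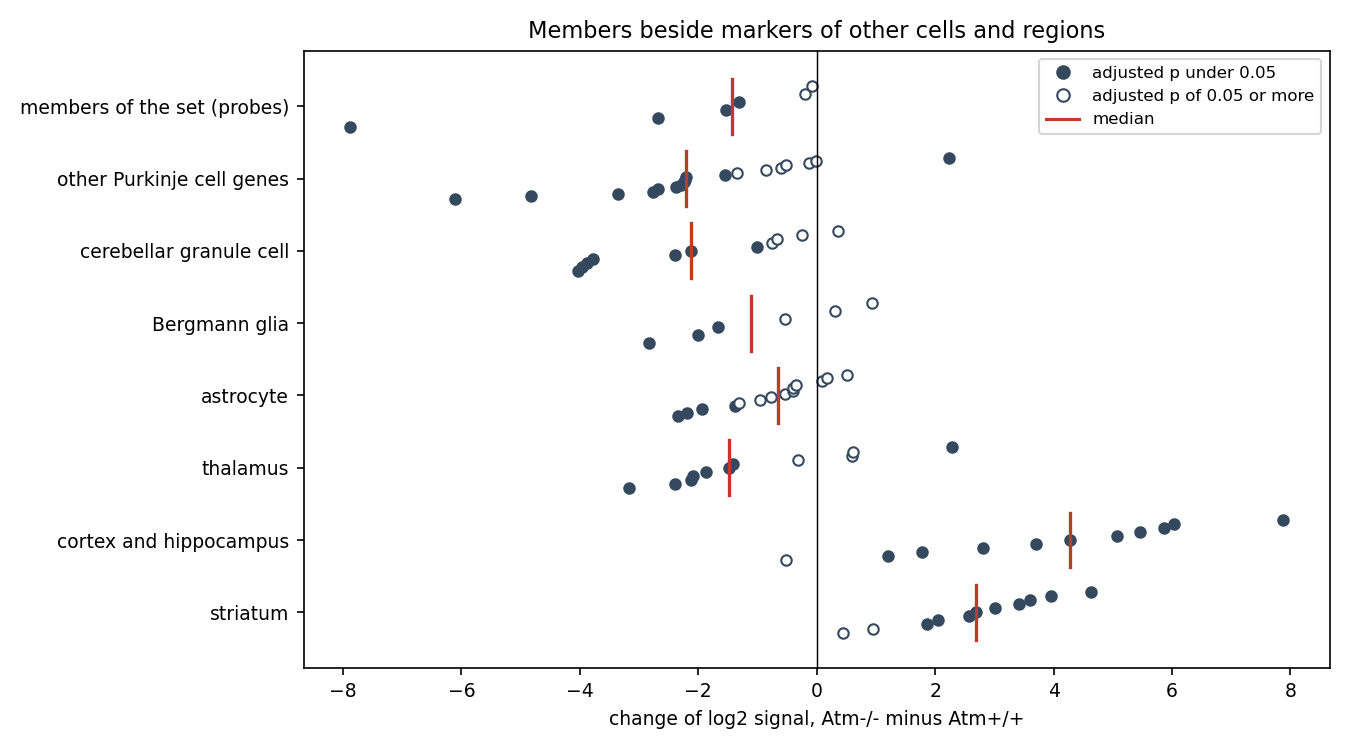
Change of log2 signal, Atm-/- minus Atm+/+ (horizontal axis), for the 6 tested probes of the members and for each tested gene of 7 marker lists, filled where the adjusted p was under 0.05, with the median as a red line. Cerebellar lists have medians of -2.21 for other Purkinje cell genes, -2.12 for granule cells and -1.11 for Bergmann glia, and the cortical and striatal lists lie on the other side at 4.28 and 2.69.

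The probes whose pattern over the 4 arrays was most like that of Pcp2 were found by Euclidean distance after each probe's mean was subtracted. Tmem25 at ILMN_2789294 was nearest, at a distance of 0.27, with 5.28 and 5.56 in Atm-/- and 13.39 and 13.06 in Atm+/+. Its other tested probes gave -0.34 and -0.74 and did not pass, so the likeness belongs to that probe. Next came Lhx1 at 1.85, En2 at 2.02, Hoxb5 at 2.18 and Hoxa5 at 2.21, all at a far larger distance than Tmem25. With 4 arrays this distance rests largely on the size of the genotype difference, so the search ranks large falls again. Tmem25 at this probe, Lhx1, Hoxb5 and Hoxa5 were at background in Atm-/-. They entered the test through Atm+/+ alone, and their distances are limited by background. The nearest to the brighter Aldoc probe were Cdr2l at 0.04, Itgb1bp1 at 0.06, Abat at 0.07, Bcl7c at 0.08 and 2300009A05Rik at 0.08. Among other tested probes of these genes, that of Cdr2l gave -1.002 (adjusted p = 0.0519), that of Itgb1bp1 -0.40 (adjusted p = 0.374) and that of Bcl7c -0.69 (adjusted p = 0.113), none of which passed. Of the other Abat probes, ILMN_1248367 fell by 1.10 (adjusted p = 0.0382), and ILMN_2752146 gave -0.18 and did not pass (adjusted p = 0.831).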

How the data were processed

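Biotin-labelled complementary RNA was hybridised to Illumina bead arrays, per the labels' protocols. The values used were the log2 signals the authors deposited, and the sources used here give neither their software nor how they were background-treated and normalized. The log base was inferred from the range of 4.47 to 16.1, and sorted arrays matched to within 0.0792 at every rank, as after quantile normalization, which hides any shift shared by most genes. The table of unnormalized signals has 8 columns of per-sample values. They carry generic names that fit no sample's label, and they were not used.

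Background was the mode of all values (5.05) plus 3 SD of the values under it, which gave 5.64. The 22383 probes above it on at least 2 of 4 arrays were fitted in R 4.3.3 with limma 3.58.1 (lmFit, then eBayes) as Atm-/- minus Atm+/+, with no covariate and no further normalization. There were 2 residual degrees of freedom and 5.22 from the prior. Benjamini-Hochberg adjustment ran over all tested probes, with a threshold of 0.05, and the fit was tested on simulated data. A probe or gene is said to rise or fall only past that threshold. For a probe at background on both arrays of a genotype, the fold is the mean of the brighter genotype over the background level. Such a tested probe passed the filter through the other genotype alone. Symbols came from the platform annotation: 34885 probes have 1 symbol, 18 several and 10378 none. An NCBI RefSeq table matched 99.8% of the identifiers and changed 0 symbols. A gene in a list was represented by its brightest tested probe. Named genes were all probes of the members, Atm, at most 4 listed genes of smallest p per list, family relatives, and the 5 probes nearest Pcp2 and Aldoc. The same was planned for Itpr1, which has no probe here. Members and lists were chosen with earlier results of these data known. Promoter sequences are RefSeq's, on GRCm38.p6. Probe sequences were not used here. The labels give no batch or scan date.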

Additional observations from a re-analysis of the deposited data

How the results depend on the processing

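The falls of Pcp2 and Ppp1r17 kept their direction and passed under every alternative in which their probes could be tested: no filter, a background of mode plus 5 SD, cyclic loess, median centring, an intensity trend, array weights, a replicate block and each array left out. Requiring all 4 arrays above background removes both by construction and leaves 2 genes and 2 probes of the set that fell. Between 2 and 4 genes, and likewise 2 to 4 probes, fell when 1 array was left out. Over those 4 fits the change was -1.69 to -1.38 for Rora, -1.59 to -1.03 for the brighter and -0.50 to 0.089 for the dimmer Aldoc probe (0.053 without Atm+/+ replicate 2, 0.089 without Atm-/- replicate 1), and -0.33 to 0.18 for Pcp4 (0.18 without Atm+/+ replicate 1). Itpr2 turned from -0.01 to 0.033 with cyclic loess, and its left-out-array range was -0.089 to 0.065. Car10 turned from -0.01 to 0.049 with cyclic loess, with a range of -0.28 to 0.26. The cause was not tested. Rorb passed with all 4 arrays above background (adjusted p = 0.0483), mode plus 5 SD (0.0496), array weights (0.0196) and the replicate block (0.00170).

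Over all listed genes, 31 fell and 25 rose, with 19 to 41 falls and 18 to 33 rises when 1 array was left out. Over all 22383 tested probes, 1357 fell and 1562 rose. Left-out arrays gave 256 to 4146 falls and 387 to 4174 rises, the low counts without an Atm-/- array and the high ones without an Atm+/+ array. Without an Atm-/- array the spread came from the Atm+/+ pair alone, and without an Atm+/+ array from the Atm-/- pair alone. With all 4 arrays, an adjusted p under 0.1 gave 2359 falls and 2472 rises. The labels do not say that replicate numbers pair samples. Deviations of same-numbered arrays correlated at 0.0590 over probes, and the replicate block gave 2196 falls and 2378 rises, with the same 4 falls among the members.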
